A study of Homo sapiens with 4 samples.

Results

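The kinesins are a family of motor proteins that use ATP to move along microtubules or to take their ends apart. Some build the mitotic spindle, move chromosomes and close the cell at division, and their transcripts are known to peak in G2 and mitosis of the cell cycle. Others carry vesicles, mitochondria, mRNA or ciliary cargo in cells that need not divide, and are best known from neurons. Here the family was taken as every gene row named KIF or KIFC with a number and at most a final A, B or C, which gave 42 of 54628 genes. They were divided by known role into 14 mitotic kinesins, 15 transport kinesins and 13 others. The others are ciliary, centriolar, atypical or little characterised, or take microtubule ends apart, such as KIF2A, which also acts at spindle poles. CENPE, a kinesin of the kinetochore under another name, is given among the partners.

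The RNA was poly(A) RNA of Panc1, a widely used human line derived from a ductal carcinoma of the pancreas. The labels give 2 libraries of cells treated with HMGB2 siRNA, a small interfering RNA aimed at HMGB2, a chromatin protein that bends DNA, and 2 libraries treated with Scramble siRNA as the control. No time, dose or siRNA sequence was given in the sources used here, and nothing says whether the 2 libraries of a group came from separate cultures. The p-values therefore rest on a spread between libraries that may be technical.

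HMGB2 itself went against the labels. Its counts were 4021 and 2746 under the label HMGB2 siRNA and only 346 and 319 under the label scramble, a log2 fold change of 3.07 ± 0.08 (SE). The count columns of all 4 tables are also headed with the opposite treatment. The labels were kept, so every direction below is that of the pair labelled HMGB2 siRNA, which is HMGB2-high, against the pair labelled scramble, which is HMGB2-low. Total counts ran from 20340695 to 31852391 per library. The keratins KRT8, KRT18 and KRT19, defining genes of simple epithelium, had at least 397.5 CPM (counts scaled by library size and TMM factor) in every library, and KRT8, KRT19 and the rare KRT7 were called higher. Of 19 markers of fibroblasts, blood, endothelial, acinar and endocrine cells, 4 had enough counts to test. COL1A1 and CD68 made up most of their summed 155.6 to 199.6 CPM, DCN, CD3E, PRSS1, INS, GCG and CHGA were at 0 in all libraries, and COL3A1 and PDGFRB were called higher at levels of at most 2.77 CPM. Their part in the results below was not tested.

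Promoters are shown first because the mitotic kinesins shared a feature there, which the genes listed as their partners hold as well. Members were chosen by role and not by sequence. Genes of this role are already known to carry the feature, so it is no independent support. Genes that peak in G2 and mitosis are known to carry a cell cycle gene homology region (CHR), which is bound by the DREAM and MuvB complexes, often close to a CCAAT box, which is bound by NF-Y. RefSeq windows of GRCh38.p14, from 250 bases before to 50 after the gene start, were found for 34 of the 42 kinesins, all but KIF13B, KIF19, KIF21B, KIF26B, KIF27, KIF5A, KIFC2 and KIFC3. In the windows below the matches to 4 CHR words (TTTGAA and its variants TTCGAA, then TTTAAA, then CTTGAA), to CCAAT and to 3 E2F words (TTTCCCGC, then TTTGGCGC, then TTTCGCGC) are in capitals, on either strand, so a CCAAT box on the other strand reads ATTGG and a CHR reads TTCAAA. Each starts 100 bases before the gene start and ends 20 after it, except KIF5B, which spans 150 to 31 bases before the start. The first 6 belong to mitotic kinesins that rose in the HMGB2-high pair, labelled HMGB2 siRNA.
KIF11, chr10:92593030-92593149 (plus strand): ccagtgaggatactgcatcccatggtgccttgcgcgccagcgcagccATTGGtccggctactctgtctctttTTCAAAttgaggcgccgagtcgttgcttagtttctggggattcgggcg
KIF4A, chrX:70290004-70290123 (plus strand): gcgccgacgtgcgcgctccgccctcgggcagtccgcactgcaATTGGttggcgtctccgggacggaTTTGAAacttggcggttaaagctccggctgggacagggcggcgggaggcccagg
KIF18A, chr11:28108137-28108256 (minus strand): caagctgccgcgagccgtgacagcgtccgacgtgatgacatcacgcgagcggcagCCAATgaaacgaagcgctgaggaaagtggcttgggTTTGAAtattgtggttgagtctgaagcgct
KIF18B, chr17:44947754-44947873 (minus strand): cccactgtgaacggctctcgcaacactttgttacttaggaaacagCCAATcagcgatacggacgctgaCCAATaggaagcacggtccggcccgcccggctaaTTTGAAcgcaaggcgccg
KIF20A, chr5:138179012-138179131 (plus strand): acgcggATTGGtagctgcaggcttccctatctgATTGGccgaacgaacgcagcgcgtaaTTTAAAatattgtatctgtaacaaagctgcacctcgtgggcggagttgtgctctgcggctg
KIF23, chr15:69414249-69414368 (plus strand): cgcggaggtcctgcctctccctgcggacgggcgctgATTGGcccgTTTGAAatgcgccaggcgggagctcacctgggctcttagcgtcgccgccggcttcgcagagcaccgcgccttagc
KIFC1 is a mitotic kinesin with too few reads to judge, and KIF24, KIF5B and KIF3B are the centriolar and transport kinesins with which these are compared.
KIFC1, chr6:33391723-33391842 (plus strand): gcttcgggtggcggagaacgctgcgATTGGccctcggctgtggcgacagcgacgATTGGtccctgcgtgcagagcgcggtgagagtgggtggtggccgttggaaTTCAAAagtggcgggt
KIF24, chr9:34329249-34329368 (minus strand): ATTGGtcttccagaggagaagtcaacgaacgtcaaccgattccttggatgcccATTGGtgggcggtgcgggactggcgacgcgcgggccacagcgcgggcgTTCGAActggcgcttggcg
KIF5B, chr10:32056456-32056575 (minus strand): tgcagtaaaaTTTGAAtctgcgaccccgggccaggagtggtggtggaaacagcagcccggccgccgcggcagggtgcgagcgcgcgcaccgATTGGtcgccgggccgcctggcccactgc
KIF3B, chr20:32277551-32277670 (plus strand): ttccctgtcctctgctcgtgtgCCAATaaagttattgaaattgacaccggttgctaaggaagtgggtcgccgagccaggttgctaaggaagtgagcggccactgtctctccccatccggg

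A CHR word was present in 13 of 14 mitotic kinesin windows, against 32.5% of all 27305 RefSeq windows of that length. CCAAT was present in 11 of 14, against 35.7% of all windows. Both were present in the same 11 windows (78.6%), against 12.7% of all windows, in 1 of 11 transport windows, that of KIF5B, and in 1 of 9 other windows, that of KIF24. The 11 mitotic windows include both KIF4A and KIF4B, an intronless copy of it, which may not be separate instances. The listed partners of the mitotic kinesins held both in 9 of 11 windows (81.8%). The commonest CHR word, TTTGAA, was in 10 of 14 mitotic windows, 1 of 11 transport windows and 0 of 9 others, and in 15.4% of all windows. TTCGAA and TTTAAA read the same on both strands. The E2F words were in 1 mitotic window, that of KIF15, where TTTGGCGC stood 43 bases before the start, in 0 of 11 transport windows, in 1 of 9 other windows, that of KIF25, and in 2.79% of all windows. KIF2B was the mitotic kinesin with no word of any kind, and KIF2C and KIF15 had a CHR word without CCAAT.

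In the mitotic windows the nearest CHR and CCAAT matches were a median of 25 bases apart, from 9 in KIF23 to 50 in KIFC1. KIF4A and its copy KIF4B both had them 24 bases apart and were counted separately. The median over all 3469 windows with both was 54 bases. In KIF5B the pair was 81 bases apart. A match is a string of letters in a window and was not tested for binding, and the windows are placed by the RefSeq gene start, which may not be the start used in Panc1. The printed windows of KIF24 and KIFC1 lie inside the genes as counted. Their outer ends on the side of the start are at 34333520 for KIF24 and 33391524 for KIFC1.

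**Figure D1:**
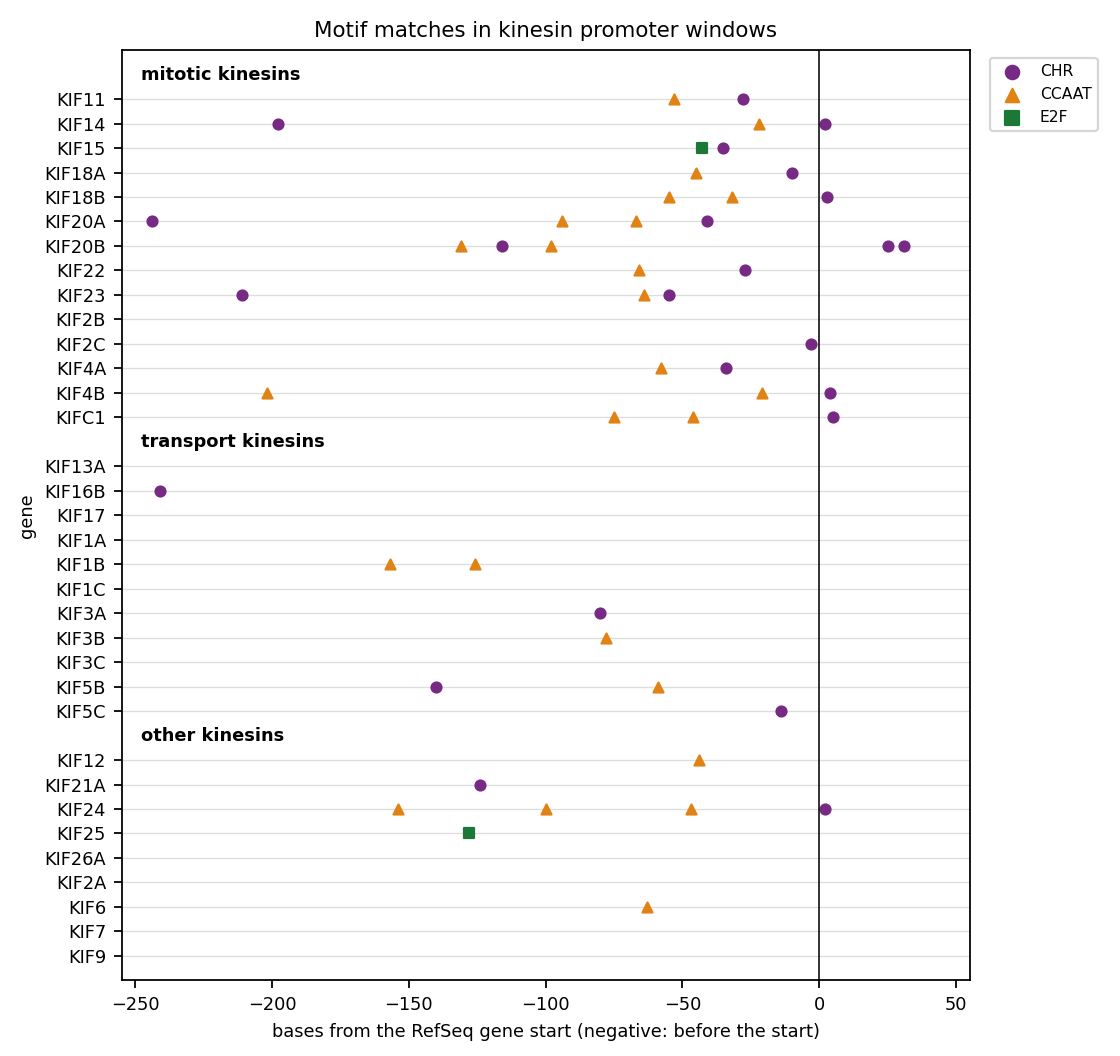
Positions of CHR, CCAAT and E2F matches in the RefSeq promoter windows of 34 kinesins, in bases from the gene start on the x axis, with 1 gene per line. Both kinds of match stand in 11 of 14 mitotic windows and in 1 of 11 transport windows.

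The mitotic kinesins rose together in the HMGB2-high pair, labelled HMGB2 siRNA (HMGB2 counts 4021 and 2746, against 346 and 319 labelled scramble). Of 14 members, 12 had enough counts to test, 11 of them were called higher (adjusted p under 0.05 over 15161 genes in the quasi-likelihood test of edgeR) and 0 were called lower. Over all tested genes 30.8% were called, 16.7% higher and 14.1% lower. The higher calls made up 54.3% of all calls, but 42.0% with upper-quartile scaling and 43.3% with scaling by totals. The changes were modest, with log2 fold changes from 0.27 to 0.72 and a median of 0.51, beside -0.0063 over all tested genes. In all 11 called members both libraries labelled HMGB2 siRNA lay above both labelled scramble, where 32.0% of tested genes did so. None of the 11 passed a test against a 1.5-fold change, which 1.4% of all tested genes passed upward and 0.297% downward. Summed over the 14 members, the level was 1176 and 1217 CPM in the pair labelled HMGB2 siRNA and 866 and 781 CPM in the pair labelled scramble. In bulk RNA, more cells in G2 and mitosis and more of these transcripts per cell cannot be told apart.

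**Figure D2:**
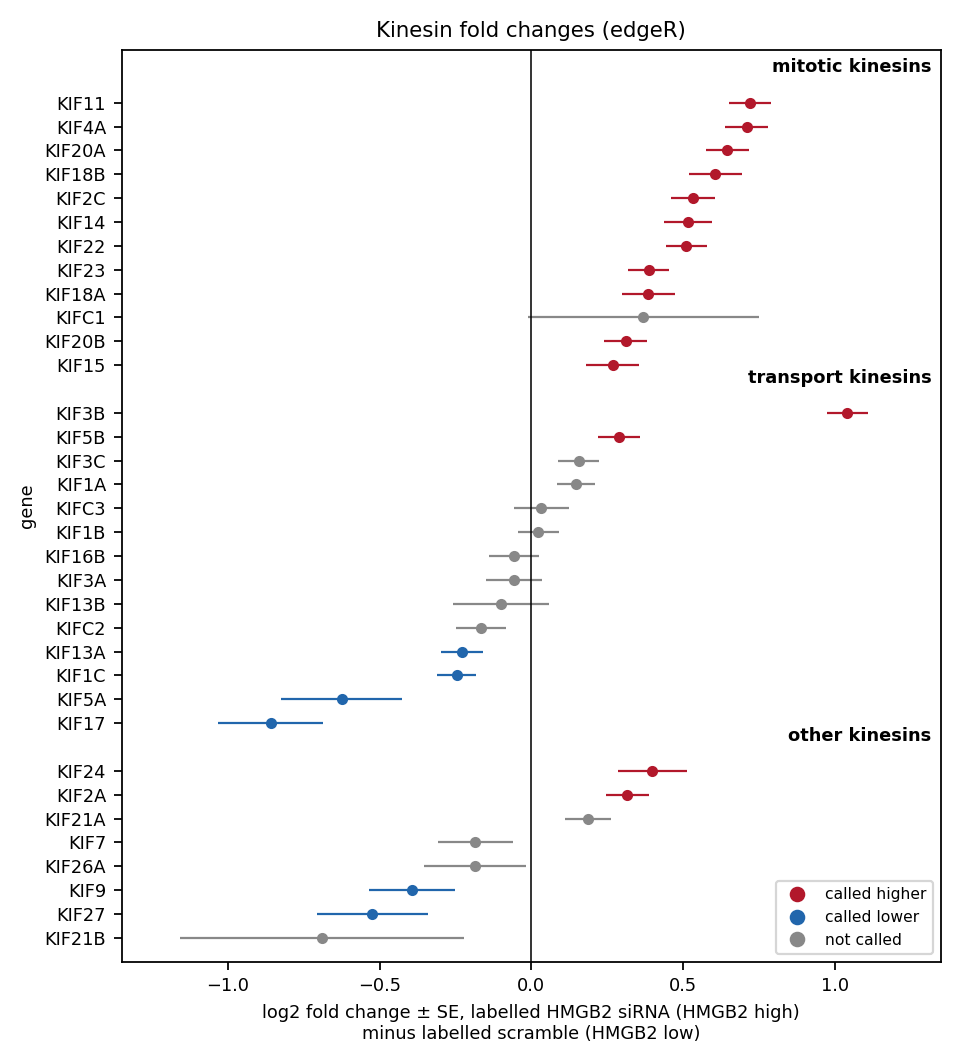
Log2 fold change with its standard error for the 34 tested kinesins, by class, as labelled HMGB2 siRNA (HMGB2-high) minus labelled scramble (HMGB2-low). The 12 mitotic kinesins all lie above 0, while transport and other kinesins lie on both sides.

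Of the motors that push the spindle poles apart, KIF11 had the largest change of the class and KIF15 the smallest among its called members. KIF11, also called Eg5, is the motor that slides antiparallel spindle microtubules and lies at chromosome 10, 92593130 to 92655395 of hg38. KIF11 had 5954 and 3757 counts, or 189 and 183 CPM, in the pair labelled HMGB2 siRNA and 2686 and 2170 counts, or 122 and 104 CPM, in the pair labelled scramble. Its groups did not overlap, and its log2 fold change was 0.72 ± 0.07 (SE), with an edgeR adjusted p of 4.77e-12. KIF15 can take over part of that task and is recruited to the spindle by TPX2. KIF15 had 1146 and 701 counts, or 36.5 and 34.2 CPM, in the pair labelled HMGB2 siRNA and 649 and 610 counts, or 29.5 and 29.3 CPM, in the pair labelled scramble. Its groups did not overlap either, and its log2 fold change was 0.27 ± 0.09 (SE) (edgeR adjusted p = 0.0158). The call on KIF15 was lost without either library labelled HMGB2 siRNA (edgeR adjusted p = 0.293 without replicate 1 and 0.0693 without replicate 2) and with upper-quartile or total-count scaling or DESeq2. The row of KIF15 also lists exons on 1 alternative sequence of the assembly, where reads that map to both copies may have been left uncounted. The ratio of KIF11 to KIF15 per length was 5.73 and 5.91 in the pair labelled HMGB2 siRNA and 4.56 and 3.92 in the pair labelled scramble.

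The chromokinesins, which bind chromosome arms, were both called higher in the HMGB2-high pair. KIF4A had 4470 and 3241 counts, or 142 and 158 CPM, in the pair labelled HMGB2 siRNA and 2158 and 1774 counts, or 98.0 and 85.1 CPM, in the pair labelled scramble. KIF4A compacts chromosomes and sets the length of the central spindle with PRC1, and its log2 fold change was 0.71 ± 0.07 (SE). KIF4B, an intronless copy of KIF4A, had 5, 4, 0 and 3 counts and was not tested, and reads of the copies may be split between them. KIF22 had 4350 and 2963 counts, or 138 and 144 CPM, in the pair labelled HMGB2 siRNA and 2307 and 1947 counts, or 105 and 93.5 CPM, in the pair labelled scramble. KIF22, or Kid, pushes chromosome arms away from the poles, and had the highest mean level per length over the 4 libraries. Among the libraries labelled scramble it was the highest in replicate 1, at 38.8 CPM per kilobase against 35.4 for KIF5B. In replicate 2 it was not, at 34.6 against 42.3 for KIF5B. Neither chromokinesin had overlapping groups, and the edgeR adjusted p was 1.55e-11 for KIF4A and 3.91e-08 for KIF22. KIF22 shares 50 exonic bases with a gene on the opposite strand.

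KIF2C, KIF18A and KIF18B, which shorten microtubules or damp their growth, rose by 1.31-fold to 1.52-fold in the HMGB2-high pair. KIF2C, or MCAK, takes microtubule ends apart at the centromere and frees wrong attachments. KIF2C had 4106 and 2819 counts, or 131 and 137 CPM, in the pair labelled HMGB2 siRNA and 2233 and 1742 counts, or 101 and 83.6 CPM, in the pair labelled scramble. KIF18A damps the swings of chromosomes at the metaphase plate. KIF18A had 1161 and 822 counts, or 36.9 and 40.1 CPM, in the pair labelled HMGB2 siRNA and 674 and 586 counts, or 30.6 and 28.1 CPM, in the pair labelled scramble. KIF18B shortens astral microtubules. KIF18B had 1747 and 1211 counts, or 55.6 and 59.0 CPM, in the pair labelled HMGB2 siRNA and 930 and 683 counts, or 42.2 and 32.8 CPM, in the pair labelled scramble. In all of these both libraries labelled scramble were the lower, and replicate 2 of that label was the lowest. The log2 fold changes were 0.53 ± 0.07 (SE) for KIF2C, 0.39 ± 0.09 (SE) for KIF18A and 0.61 ± 0.09 (SE) for KIF18B. Their edgeR adjusted p-values were 5.66e-08, 0.000508 and 1.6e-07. KIF18B shares 87 exonic bases with a gene on the opposite strand. KIF2B, a close relative of KIF2C, had 0 counts in all 4 libraries, which allows up to 0.0954 to 0.146 CPM (3 counts per library, counting error only).

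The kinesins of the central spindle and of cytokinesis followed. KIF20A, or MKLP2, brings the Aurora B complex to the midzone. KIF20A had 3543 and 2531 counts, or 113 and 123 CPM, in the pair labelled HMGB2 siRNA and 1772 and 1458 counts, or 80.5 and 70.0 CPM, in the pair labelled scramble. It was 1.57-fold higher, with a log2 fold change of 0.65 ± 0.07 (SE) (edgeR adjusted p = 3.33e-10). KIF23, or MKLP1, forms centralspindlin with RACGAP1. KIF23 had 5551 and 3684 counts, or 177 and 179.5 CPM, in the pair labelled HMGB2 siRNA and 3172 and 2669 counts, or 144 and 128 CPM, in the pair labelled scramble. Its groups did not overlap, and its log2 fold change of 0.39 ± 0.07 (SE) was smaller than that of KIF20A, a difference that was not tested. KIF14 binds PRC1 and citron kinase at the midbody. KIF14 had 2171 and 1432 counts, or 69.1 and 69.8 CPM, in the pair labelled HMGB2 siRNA and 965 and 1110 counts, or 43.8 and 53.3 CPM, in the pair labelled scramble. KIF20B, or MPP1, acts late in cytokinesis. KIF20B had 2731 and 1758 counts, or 86.9 and 85.7 CPM, in the pair labelled HMGB2 siRNA and 1492 and 1487 counts, or 67.8 and 71.4 CPM, in the pair labelled scramble. The pairs of both genes lay apart, with log2 fold changes of 0.52 ± 0.08 (SE) and 0.31 ± 0.07 (SE). The edgeR adjusted p was 7.99e-06 for KIF23, 7.7e-07 for KIF14 and 0.00046 for KIF20B. KIF20A shares 74 exonic bases with CDC23 and KIF23 shares 154 with KIF23-AS1, each on the opposite strand.

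KIFC1, the minus-end motor that holds extra centrosomes together, was the tested mitotic kinesin that was not called. KIFC1 had 29 and 42 counts, or 0.923 and 2.05 CPM, in the pair labelled HMGB2 siRNA and 23 and 24 counts, or 1.04 and 1.15 CPM, in the pair labelled scramble. Its groups overlapped, and the highest value was that of replicate 2 labelled HMGB2 siRNA. The log2 fold change of 0.37 ± 0.38 (SE) had an edgeR adjusted p of 0.509, and turned to -0.24 without that library. Its level per length was 0.392 CPM per kilobase, against 5.85 to 44.6 in the 11 called members. The row of KIFC1 lists exons on 2 alternative sequences of the assembly, so reads that map to all copies may have been left uncounted, which was not tested.

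**Figure D3:**
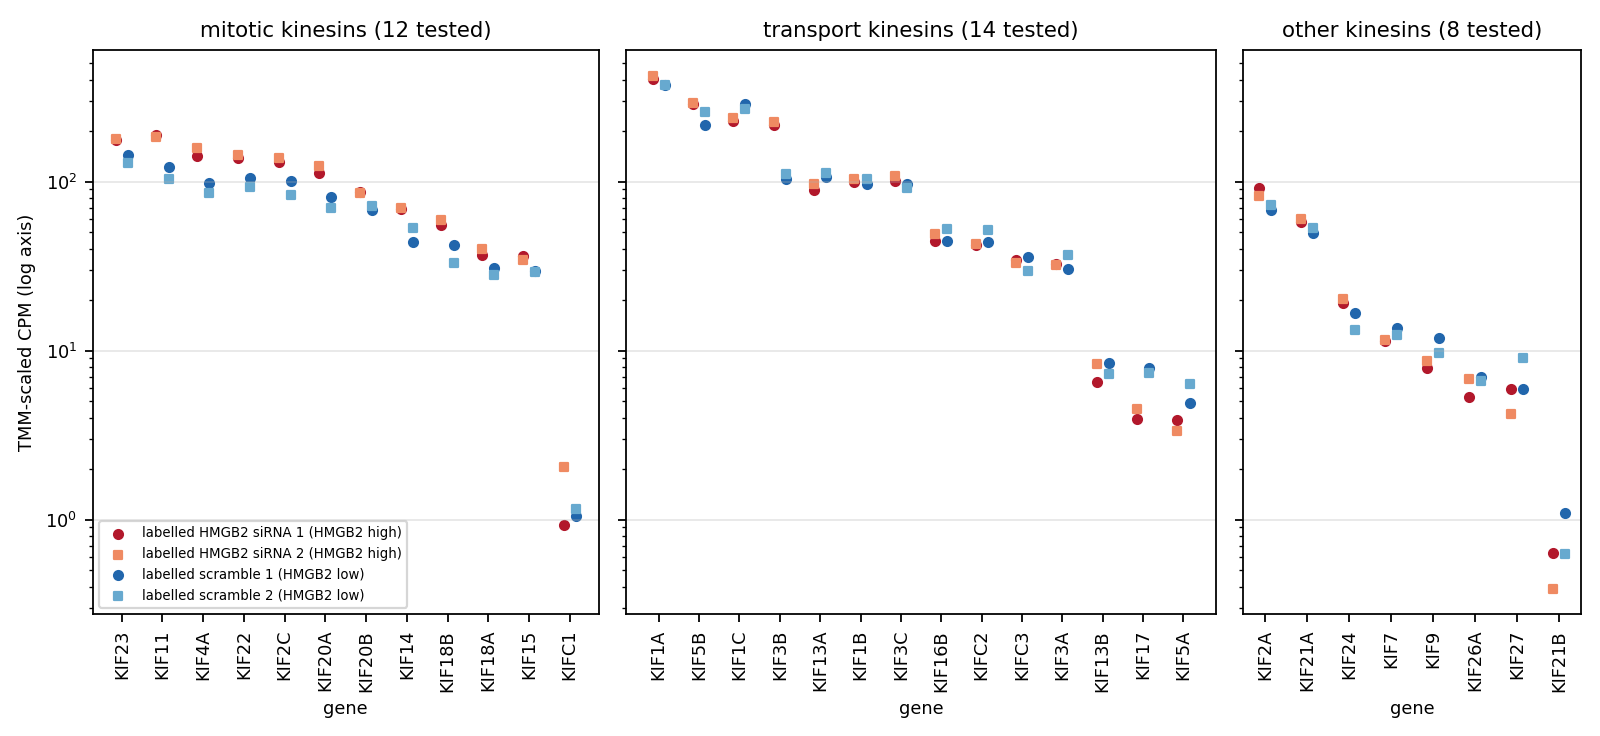
TMM-scaled CPM of the 34 tested kinesins in each library on a log axis, by class and in order of level. For 11 of 12 mitotic kinesins both libraries labelled HMGB2 siRNA (HMGB2-high) stand above both labelled scramble (HMGB2-low). KIFC1 lies far under the rest of its class.

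Transport kinesins went both ways. Of 15 members, 14 were tested, 2 were called higher and 4 lower, and 8 were not called, with a median log2 fold change of -0.057. In 4 of the 14 the HMGB2-high pair lay wholly above the other and in 5 wholly below, where 32.0% and 31.6% of all tested genes did so, 63.7% together. These shares, 2 of 14 and 4 of 14, stand beside 16.7% and 14.1% of all tested genes. The difference between the medians of mitotic and transport kinesins was 0.57 on the log2 scale, and lay between 0.42 and 0.63 when single libraries were left out. The lowest of these values was found without replicate 2 labelled scramble. The median of the transport kinesins turned to 0.0069 without replicate 1 labelled HMGB2 siRNA and to 0.014 without replicate 2 labelled scramble.

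The largest fold change among the 34 tested kinesins was that of KIF3B, a motor subunit of heterotrimeric kinesin-2, which carries ciliary and other cargo (chromosome 20, 32277651 to 32335011). KIF3B had 6759 and 4627 counts, or 215 and 225 CPM, in the pair labelled HMGB2 siRNA and 2278 and 2299 counts, or 103 and 110.3 CPM, in the pair labelled scramble. Both libraries labelled HMGB2 siRNA lay far above both labelled scramble. KIF3B was 2.06-fold higher, by 1.04 ± 0.07 (SE) on the log2 scale (edgeR adjusted p = 3.88e-18), and it was the only kinesin that also passed the test against a 1.5-fold change. No other gene row shares its exons.

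The transcripts of the other subunits of heterotrimeric kinesin-2 were not called. KIF3A, the usual partner in the heterodimer, had 32.5 and 32.0 against 30.2 and 37.0 CPM, so its groups overlapped. Its log2 fold change was -0.057 ± 0.09 (SE) (edgeR adjusted p = 0.689). KIF3C had 3175 and 2221 counts, or 101 and 108 CPM, in the pair labelled HMGB2 siRNA and 2121 and 1899 counts, or 96.3 and 91.1 CPM, in the pair labelled scramble. KIF3C pairs with KIF3A in place of KIF3B; its groups did not overlap, but its log2 fold change of 0.16 ± 0.07 (SE) was not called (edgeR adjusted p = 0.0772), although it was without replicate 1 labelled scramble (edgeR adjusted p = 0.0111). KIFAP3, the accessory subunit of both, had 14.1 and 15.6 against 15.8 and 17.1 CPM and a log2 fold change of -0.15 ± 0.11 (SE) (edgeR adjusted p = 0.331). The ratio of KIF3B to KIF3A per length was 7.63 and 8.13 in the pair labelled HMGB2 siRNA and 3.95 and 3.44 in the pair labelled scramble. The ratio of KIF3B to KIF3C was 1.89 and 1.85 against 0.954 and 1.07. Neither ratio overlapped between the groups, but the smallest two-sided exact permutation p that 4 libraries in 2 pairs allow is 0.333.

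KIF17, which forms the homodimeric kinesin-2 and is known from dendrites and cilia, went down in the HMGB2-high pair. KIF17 had 124 and 93 counts, or 3.94 and 4.53 CPM, in the pair labelled HMGB2 siRNA and 173 and 154 counts, or 7.86 and 7.39 CPM, in the pair labelled scramble. Its groups did not overlap, and its log2 fold change was -0.86 ± 0.17 (SE) with an edgeR adjusted p of 0.000103. At 1.45 CPM per kilobase on average it was a rare transcript beside KIF3B, at 26.0.

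**Figure D4:**
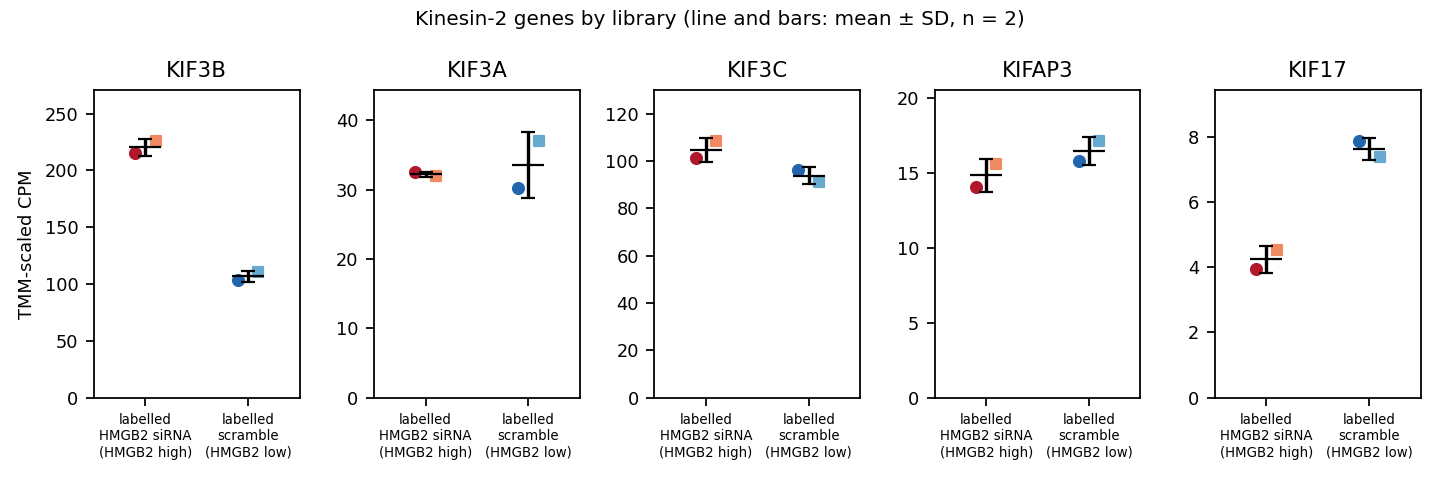
TMM-scaled CPM of KIF3B, KIF3A, KIF3C, the accessory subunit KIFAP3 and KIF17, with circles for replicate 1, squares for replicate 2, and mean ± SD (n = 2) in black. KIF3B lies higher and KIF17 lower in the pair labelled HMGB2 siRNA (HMGB2-high), and the KIF3A groups overlap.

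The conventional kinesins, which form the heavy chain of kinesin-1, moved apart. KIF5B is the general form that carries mitochondria and other organelles. KIF5B had 8992 and 5965 counts, or 286 and 291 CPM, in the pair labelled HMGB2 siRNA and 4728 and 5354 counts, or 215 and 257 CPM, in the pair labelled scramble. The groups did not overlap, although the libraries labelled scramble were wide apart, and the log2 fold change was 0.29 ± 0.07 (SE) (edgeR adjusted p = 0.000814). KIF5B shares 105 exonic bases with a gene on the opposite strand. KIF5A, the neuronal form, was rare and lower. KIF5A had 122 and 69 counts, or 3.88 and 3.36 CPM, in the pair labelled HMGB2 siRNA and 108 and 133 counts, or 4.91 and 6.38 CPM, in the pair labelled scramble. Its log2 fold change of -0.62 ± 0.20 (SE) passed the test (edgeR adjusted p = 0.0129). That call was lost with DESeq2 and without replicate 2 of either label (edgeR adjusted p = 0.125 labelled HMGB2 siRNA, 0.165 labelled scramble). KIF5C, the third heavy chain, had 3, 3, 3 and 5 counts and was not tested. The row of KIF5C also lists exons on 1 alternative sequence, where reads that map to both copies may have been left uncounted.

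Of the long-range vesicle carriers, KIF1C and KIF13A were called lower by small amounts in the HMGB2-high pair. KIF1C, which moves integrin-bearing vesicles, was among the most abundant. KIF1C had 7219 and 4903 counts, or 229.6 and 239 CPM, in the pair labelled HMGB2 siRNA and 6332 and 5572 counts, or 288 and 267 CPM, in the pair labelled scramble. KIF13A carries endosomes. KIF13A had 2820 and 1992 counts, or 89.7 and 97.1 CPM, in the pair labelled HMGB2 siRNA and 2347 and 2333 counts, or 107 and 112 CPM, in the pair labelled scramble. In both the pairs lay apart, and the log2 fold changes were -0.24 ± 0.06 (SE) and -0.23 ± 0.07 (SE). The edgeR adjusted p-values were 0.00257 for KIF1C and 0.00793 for KIF13A, and both calls were lost without either library labelled HMGB2 siRNA. Without replicate 1 the adjusted p of edgeR was 0.166 for KIF1C and 0.332 for KIF13A, and without replicate 2 it was 0.0559 and 0.0536. KIF1C shares 122 exonic bases with genes on the opposite strand.

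KIF1A, the axonal carrier of synaptic vesicle precursors, had more counts than any other kinesin in this epithelial line. KIF1A had 12760 and 8671 counts, or 406 and 423 CPM, in the pair labelled HMGB2 siRNA and 8240 and 7778 counts, or 374 and 373 CPM, in the pair labelled scramble. The pairs did not overlap, but the log2 fold change of 0.15 ± 0.06 (SE) was not called (edgeR adjusted p = 0.0724). It was called without replicate 1 labelled scramble (edgeR adjusted p = 0.0281), without replicate 2 of that label (0.0432) and with no low-count filter (0.0444). KIF1B had 3143 and 2127 counts, or 99.98 and 104 CPM, in the pair labelled HMGB2 siRNA and 2137 and 2150 counts, or 97.1 and 103 CPM, in the pair labelled scramble. KIF1B, its close relative, had overlapping groups and a log2 fold change of 0.023. The remaining transport kinesins KIF16B, KIFC2, KIFC3 and KIF13B had log2 fold changes from -0.17 to 0.033 and none was called. KIFC2, the lowest of these, was called with upper-quartile scaling (edgeR adjusted p = 0.0409) and without replicate 1 labelled scramble (0.00282), and shares 791 exonic bases with FOXH1 on the opposite strand.

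Among the 13 other kinesins, 8 were tested, and 2 were called higher and 2 lower in the HMGB2-high pair. Their median log2 fold change was -0.19. Over all tested genes 16.7% were higher and 14.1% lower. KIF2A takes apart microtubule ends at spindle poles and in growing neurites. KIF2A had 2877 and 1695 counts, or 91.5 and 82.6 CPM, in the pair labelled HMGB2 siRNA and 1494 and 1504 counts, or 67.9 and 72.2 CPM, in the pair labelled scramble. KIF24 acts on centriolar microtubules and holds back the primary cilium. KIF24 had 603 and 415 counts, or 19.2 and 20.2 CPM, in the pair labelled HMGB2 siRNA and 366 and 274 counts, or 16.6 and 13.2 CPM, in the pair labelled scramble. The groups of both lay apart, with log2 fold changes of 0.32 ± 0.07 (SE) for KIF2A (edgeR adjusted p = 0.000478) and 0.40 ± 0.11 (SE) for KIF24 (edgeR adjusted p = 0.00507). The call on KIF2A was lost without replicate 1 labelled HMGB2 siRNA (edgeR adjusted p = 0.131). That on KIF24 was lost without replicate 2 of either label (edgeR adjusted p = 0.073 labelled HMGB2 siRNA, 0.0972 labelled scramble). KIF2A shares 1906 exonic bases with DIMT1 and KIF24 675 with UBAP1 and a pseudogene on the opposite strand, so reads of these overlapping genes may be mixed where strand was not used in counting.

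KIF9 and KIF27 were called lower in the HMGB2-high pair. KIF9 is a kinesin of motile cilia. KIF9 had 249 and 177 counts, or 7.92 and 8.63 CPM, in the pair labelled HMGB2 siRNA and 263 and 201 counts, or 11.9 and 9.65 CPM, in the pair labelled scramble. KIF27 belongs to a family tied to motile cilia. KIF27 had 186 and 87 counts, or 5.92 and 4.24 CPM, in the pair labelled HMGB2 siRNA and 130 and 188 counts, or 5.91 and 9.02 CPM, in the pair labelled scramble. The pairs of KIF9 lay apart, while those of KIF27 met, since replicate 1 of each label had nearly the same CPM. Their log2 fold changes were -0.39 ± 0.14 (SE) and -0.52 ± 0.18 (SE), with edgeR adjusted p-values of 0.0295 and 0.0235. Both calls were weak. That on KIF9 was lost with DESeq2, with no low-count filter and without any library but replicate 2 labelled scramble. The adjusted p of edgeR for KIF9 was 0.28 and 0.0809 without replicate 1 and 2 labelled HMGB2 siRNA, and 0.291 without replicate 1 labelled scramble. That on KIF27 was lost with DESeq2 and without replicate 2 of either label (edgeR adjusted p = 0.324 labelled HMGB2 siRNA, 0.533 labelled scramble). KIF9 and KIF27 share 288 and 786 exonic bases with genes on the opposite strand.

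The other members were not called or were too rare to test. KIF21A limits microtubule growth at the cortex. KIF21A had 1804 and 1230 counts, or 57.4 and 59.9 CPM, in the pair labelled HMGB2 siRNA and 1091 and 1111 counts, or 49.6 and 53.3 CPM, in the pair labelled scramble. Its groups did not overlap, and its log2 fold change of 0.19 ± 0.08 (SE) just missed the threshold (edgeR adjusted p = 0.0531). It was called without replicate 2 labelled scramble (edgeR adjusted p = 0.00857). KIF7 regulates Hedgehog signalling at the cilium tip. KIF7 had 360 and 237 counts, or 11.5 and 11.5 CPM, in the pair labelled HMGB2 siRNA and 301 and 259 counts, or 13.7 and 12.4 CPM, in the pair labelled scramble. Its groups did not overlap, its log2 fold change was -0.18 ± 0.12 (SE) and its edgeR adjusted p was 0.276. KIF26A had 167 and 139 counts, or 5.31 and 6.77 CPM, in the pair labelled HMGB2 siRNA and 153 and 138 counts, or 6.95 and 6.62 CPM, in the pair labelled scramble. KIF26A is an atypical kinesin, and its groups overlapped. KIF21B had 8 to 24 counts and the largest log2 fold change in size of the 8 tested, -0.69 ± 0.47 (SE). It was not called (edgeR adjusted p = 0.284). KIF12, KIF25, KIF26B and KIF19 had at most 16 counts in any library and were not tested, and KIF6 had 0 counts in all 4. The row of KIF26B lists exons on 1 alternative sequence, where reads that map to both copies may have been left uncounted.

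Levels were compared between genes as CPM per kilobase of listed exon, which understates genes with many isoforms. The highest means over the 4 libraries were those of KIF22 (44.6), KIF5B (43.2), KIF1A (40.5) and KIF23 (39.6). Their ranges over the 4 libraries overlapped, but these ranges pool both labels and do not compare genes within a library. Within every library KIF22 stood above KIF23. KIF2C, KIF1C, KIF20A, KIF11, KIF4A and KIF3B followed, from 32.4 to 26.0, again with overlapping pooled ranges. KIF2C lay above KIF1C in the pair labelled HMGB2 siRNA (37.4 and 39.3 against 28.9 and 30.1). In the pair labelled scramble it lay below KIF1C (29.0 and 23.9 against 36.2 and 33.6). A gap came after KIF3C, at 17.8 with a range of 16.3 to 19.4, since KIF20B, the next in order, ran from 10.5 to 13.5. Further down, the ranges of neighbours were apart between KIF15 and KIF3A, between KIFC3 and KIF7 and between KIFC1 and KIF12. Of the summed level per length of the 38 kinesins without exons on alternative sequences, mitotic kinesins made up 54.1% and 54.3% in the pair labelled HMGB2 siRNA and 49.3% and 45.3% in the pair labelled scramble. Transport kinesins made up 40.9% and 41.0% against 45.0% and 48.8%, although their summed level was not lower, at 1595 and 1659 against 1455 and 1506 CPM over the 15 members. All kinesins together took 0.293% and 0.3% of counts in the former pair and 0.251% and 0.253% in the latter.

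**Figure D5:**
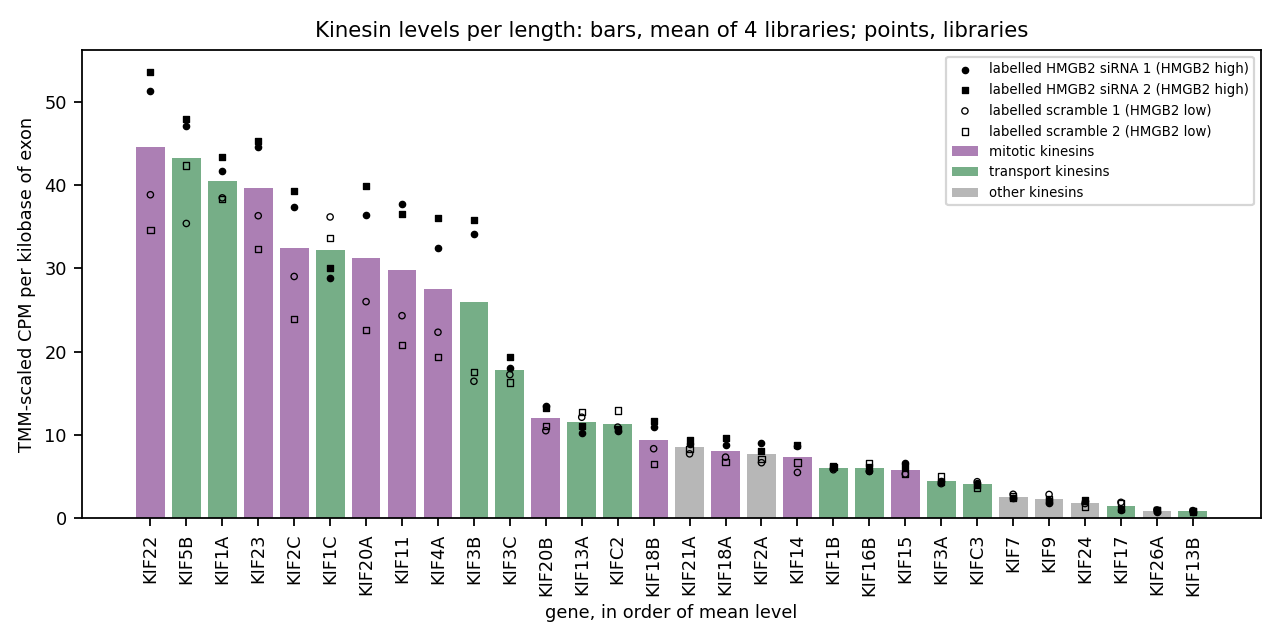
Mean level per length of the 30 most abundant kinesins (bars, TMM-scaled CPM per kilobase of exon, coloured by class), with filled points for the libraries labelled HMGB2 siRNA and open points for those labelled scramble. KIF22, KIF5B, KIF1A and KIF23 head the order with overlapping ranges.

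The promoter words were then set beside the calls. Of the 12 tested kinesins whose window held both a CHR word and CCAAT, 11 were called higher and 0 lower. The exception was KIFC1, and the 11 included KIF5B and KIF24 from outside the mitotic class. Of the 16 tested kinesins whose window did not hold both, 4 were higher and 4 lower, and the 4 higher were KIF2C, KIF15, KIF3B and KIF2A. The other 6 tested kinesins, KIF5A and KIF27 among them, have no window and were left out of these counts. Over all tested genes with a window, 27.2% of 987 with both words and 17.3% of 10149 without were called higher, and 12.0% and 14.6% were called lower. Most kinesins with both words are mitotic, so the words and the class cannot be told apart here.

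The partners of the mitotic kinesins moved with them and were higher in the HMGB2-high pair. All 15 listed partners were called higher, beside 16.7% of all tested genes, and their median on the log2 scale was 0.56. PLK1, the kinase that docks on KIF20A, had 164 and 164 against 98.1 and 81.2 CPM and was 1.83-fold higher. AURKA, the kinase activated by TPX2, had 226 ± 1.02 against 137 ± 18.0 CPM (SD, n = 2 each). CIT, the citron kinase bound by KIF14, had 97.4 and 106 against 64.3 and 59.1 CPM and was 1.64-fold higher. CENPE, the kinetochore kinesin outside the naming rule, had 67.1 and 67.9 against 56.3 and 54.8 CPM and the smallest log2 fold change of the list, 0.28 ± 0.07 (SE). In each of these 4 genes the pair labelled HMGB2 siRNA lay wholly above the other, as it did in 32.0% of all tested genes. The edgeR adjusted p-values were 2.77e-14, 6.48e-12, 1.61e-11 and 0.00232. Many of these genes are mitotic genes already known to be higher in these libraries, so they are no independent support.

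The cargo and track partners of transport kinesins went both ways in the HMGB2-high pair. Of 24 listed, 23 were tested, 5 were higher and 4 lower, with a median log2 fold change of -0.02, beside 16.7% higher and 14.1% lower over all tested genes. Higher were MAP7D2 (log2 fold change 0.67 ± 0.11 (SE)) and MAP7D1 (0.26 ± 0.06 (SE)), which help load kinesin-1 on microtubules, and RHOT1 (0.37 ± 0.08 (SE)), the mitochondrial anchor of the motor. Lower were the adaptor FEZ2 (-0.65 ± 0.07 (SE)), the JNK scaffold MAPK8IP3 (-0.33 ± 0.07 (SE)) and MAP7 (-0.44 ± 0.11 (SE)), a relative of the MAP7D genes. Their edgeR adjusted p-values ran from 1.52e-10 for FEZ2 to 0.00151 for MAP7D1. The kinesin light chain KLC1 was 1.15-fold higher, while KLC2, at 110.4 and 108 against 109 and 109 CPM, did not differ beyond the spread of its libraries. Of 20 genes of dynein and dynactin, the motor that runs the other way, 18 were tested, 2 were higher and 1 lower, beside the same 16.7% and 14.1%. These were DCTN4 (0.45 ± 0.07 (SE)), DYNLL2 (0.21 ± 0.07 (SE)) and DYNC1LI2 (-0.25 ± 0.07 (SE), log2 fold changes), with edgeR adjusted p-values of 3.49e-07, 0.0184 and 0.00335.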

How the data were processed

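The 4 Panc1 libraries, 2 per treatment label, held poly(A) RNA. The authors deposited whole-number read counts per gene over listed exons, not normalized, per the file headers. STAR, SAMtools 1.9, featureCounts of Subread 1.6.3, DESeq2 and hg38 are named in the submitters' processing notes. The sources used here do not state the strand setting or how multimapping reads were treated. Samples were grouped by label although file headers name the opposite treatment.

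The counts of all genes were tested with edgeR 4.0.16 (glmQLFit, glmQLFTest, TMM, filterByExpr with a smallest count of 10 and total of 15) in R 4.3.3, which left 15161 genes, and p-values were Benjamini-Hochberg adjusted with a threshold of 0.05. The common biological coefficient of variation was 0.0507. Alternatives were other scalings and filters, DESeq2 1.42.0, limma-voom (limma 3.58.1), a replicate block, a test against 1.5-fold (glmTreat), thinning to 20340695 counts, other class borders and leaving out each library. The procedure was tested on simulated data in which every gene had the common coefficient of variation. That test does not bear on genes that vary more. Depth limits the precision of the rarest genes, with 3 counts equal to 0.0954 to 0.146 CPM. The chi-square per degree of freedom between libraries of a group was 3.1 and 5.68, so they differed by more than sampling noise. A log2 fold change has the direction labelled HMGB2 siRNA minus labelled scramble.

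Members, classes, partner lists and promoter words were chosen with earlier results of these data known. HMGB2 and all tested kinesins were named, with values in every library for called members and the 3 most abundant uncalled of each class, and up to 3 partners of each list per direction by p. CENPE, KLC1, KLC2, KIF3A and KIFAP3 were added to these after their values were seen.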

Additional observations from a re-analysis of the deposited data

How the results depend on the processing

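Apart from the test against a 1.5-fold change, 13 of the 21 called kinesins kept direction and call under all 13 alternatives (10 of 11 mitotic, KIF3B, KIF5B and KIF17). Under that test 0 mitotic kinesins were called, 1 transport kinesin was higher and 0 lower, 0 others were higher and 0 lower, and 213 and 45 of all genes were called. DESeq2 called 0 other kinesins lower and 1286 of all genes lower, and no low-count filter left 1 other kinesin lower. Scaling by upper quartile or by total counts moved the median log2 fold change of the other kinesins from -0.19 to -0.24 and -0.23, and thinning to -0.15. Both scalings turned KIF1B to -0.027 and -0.024 and KIFC3 to -0.018 and -0.013. The share of all calls that were higher was 54.3% with TMM, 42.0% with the upper quartile and 43.3% with totals. With KIF2A, KIF24 and KIF25 among the mitotic kinesins, 0 others were higher and their median was -0.29.

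Leaving out single libraries gave 10 to 11 mitotic kinesins higher with medians from 0.43 to 0.56, 2 to 4 transport kinesins higher and 1 to 5 lower with medians from -0.092 to 0.014, and 1 to 2 others higher and 0 to 1 lower with medians from -0.25 to -0.19. Of all genes 1481 to 2904 were then higher and 903 to 2291 lower. The difference of class medians ran from 0.42 to 0.63. Uncalled members whose sign changed ran from -0.26 to 0.087 (KIF13B), -0.17 to 0.070 (KIF16B), -0.24 to 0.90 (KIFC1), -0.014 to 0.069 (KIF1B), -0.19 to 0.096 (KIF3A) and -0.094 to 0.19 (KIFC3). Where this left 1 library in a group, it was assumed to vary like the other group. The labels share replicate numbers only: deviations of same-numbered libraries correlated at -0.014, and with the replicate block 11 mitotic kinesins were higher (median 0.52) and 2 transport kinesins were higher and 4 lower. Causes of these changes were not tested. Low counts limit what can be said of KIFC1, KIF21B and the 8 untested kinesins, and the cause of these low counts was not tested.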
